A study of Mus musculus with 12 samples.

Results

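Growth factor receptors at the cell surface carry survival and growth signals into melanocytes, and 10 genes for such receptors were followed here: Kit, Met, Axl, Egfr, Erbb2, Erbb3, Igf1r, Pdgfra, Pdgfrb and Ngfr. The members were taken by gene symbol from a table of 34513 mouse genes, each symbol matched 1 row, and all 10 passed the filter on low counts. The RNA came from cultures of 3 mouse lines: Melan-A, a non-tumorigenic melanocyte line, B16F0, a tumorigenic melanoma line, and B16F10, a metastatic melanoma line. Each line was sequenced untreated and after SX-682, an inhibitor of the chemokine receptors CXCR1 and CXCR2, with 2 libraries in each of the 6 groups and 12 libraries in all. The comparison the series was made for is SX-682 against untreated control within each line, and a second set of comparisons places the untreated lines side by side. Each line is a single established line, no dose or time of SX-682 is given for these RNA cultures in the sources used here (a dose, a duration and a DMSO control are stated for a growth assay of the same lines), and the controls are labelled as untreated, so a vehicle cannot be told apart from the inhibitor. The labels do not say that the 2 libraries of a group came from separate cultures, so the p-values measure only the spread between these libraries.

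Most of these receptors are tyrosine kinases that span the plasma membrane. A ligand brings receptor chains together, the chains phosphorylate each other, and adaptor proteins then pass the signal to the RAS-MAPK and PI3K-AKT pathways. In the pigment lineage, KIT and its ligand stem cell factor guide melanoblast migration and survival, MET binds hepatocyte growth factor (HGF), ERBB3 is a receptor of neuregulins, and AXL and NGFR are widely used as markers of melanoma cells with little pigment gene expression. NGFR, the p75 neurotrophin receptor, belongs to the TNF receptor superfamily and has no kinase domain.

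The bases before the start of 4 members are shown because they are each highest in a different line (Axl in Melan-A, Kit in B16F0, Ngfr in B16F10) or because the mRNA moved most with SX-682 among the well expressed members (Met). The sequences are from RefSeq on GRCm38.p6, read 5′ to 3′ on the strand of the gene, and matched 8 of the 10 members. Capitals mark the E-box CACGTG, the AP-1 site TGANTCA and the GC box GGGCGG, each searched on both strands, together with the M-box core CATGTG. Each stretch starts 250 bases before the RefSeq start and stops before the first base of the gene in RefSeq or GENCODE M21, whichever comes first, and for Met, whose RefSeq start lies 157 bases inside the GENCODE gene, the 30 bases around 2 further sites follow. Kit is on chr5:75574737-75574915, plus strand. Met is on chr6:17463707-17463799, plus strand, with its E-box in chr6:17463819-17463848 and its AP-1 site in chr6:17463892-17463921. Axl is on chr7:25788734-25788983, minus strand, and Ngfr on chr11:95587736-95587948, minus strand.
Kit: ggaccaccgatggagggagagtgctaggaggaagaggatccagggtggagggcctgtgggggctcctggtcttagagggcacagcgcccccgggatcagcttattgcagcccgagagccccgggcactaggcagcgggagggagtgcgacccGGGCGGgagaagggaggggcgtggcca
Met: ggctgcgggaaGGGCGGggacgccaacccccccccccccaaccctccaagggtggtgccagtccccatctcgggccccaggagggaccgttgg
Met, E-box: gggacgaacagaCACGTGctgGGGCGGgta
Met, AP-1 site: tgttgcccggcTGAGTCAcgggccgggcag
Axl: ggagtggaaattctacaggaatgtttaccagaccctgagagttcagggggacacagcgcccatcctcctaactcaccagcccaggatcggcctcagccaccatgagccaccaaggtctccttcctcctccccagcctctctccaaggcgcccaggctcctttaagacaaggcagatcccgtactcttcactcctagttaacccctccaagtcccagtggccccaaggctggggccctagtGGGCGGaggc
Ngfr: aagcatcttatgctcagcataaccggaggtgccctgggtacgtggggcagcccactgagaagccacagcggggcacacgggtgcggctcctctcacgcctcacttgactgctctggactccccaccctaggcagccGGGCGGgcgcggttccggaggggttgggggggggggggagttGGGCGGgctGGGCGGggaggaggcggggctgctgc
In the full 250 bases, the E-box and the AP-1 site each occurred in 1 of the 8 members, Met, beside 6.02% and 6.75% of 32851 start sites of the same table. No member held the M-box core, which 12.3% of the start sites held. A GC box stood in 6 of the 8 members, beside 32.7% of the start sites, with 3 in Met and 4 in Ngfr. These matches are descriptions of the letters, and binding was not measured.

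Between 48876982 and 85322092 reads were counted on genes in each library. Values are given as counts and as CPM (a count divided by the TMM-scaled total of its library, on the usual scale), where 3 counts, used as the floor of detection, correspond to 0.033 to 0.0623 CPM. Floors and counting intervals cover counting error only. Differences were tested with edgeR's quasi-likelihood F-test over 18338 genes, and "higher", "lower", "rose" and "fell" are used for an adjusted p under 0.05. The spread between replicates was small, with a common biological coefficient of variation of 2.78%, so that small differences pass. With 2 libraries against 2, an exact permutation test cannot give a two-sided p below 0.333, and the tests rest on the spread shared over genes and groups. The melanocyte markers Mitf, Sox10, Pmel, Mlana, Tyr, Tyrp1 and Dct were present in all groups, but their summed level was 1340 to 1370 CPM in untreated Melan-A, 18600 to 18700 in B16F0 and 24400 to 24500 in B16F10. Tyr, the first enzyme of melanin synthesis, was at 0.892 and 0.76 CPM in the Melan-A controls, Pmel was at 7.53 and 8.70 CPM, and Sox10, the neural crest factor, was at 655 and 685 CPM. Untreated, 6 of the 7 were higher in both B16 lines than in Melan-A (24.3% of all genes). Sox10 was lower in both (30.5%), with log2 differences of -0.57 in B16F0 and -0.19 in B16F10. With SX-682 all 7 fell in both B16 lines (25.0% of all genes in B16F0 and 25.3% in B16F10), while 2 rose (23.4%) and 4 fell (24.7%) in Melan-A. The 6 fibroblast markers summed to 110 to 111 CPM in the Melan-A controls and 7.19 to 8.32 CPM in the B16 controls, with Dcn and Thy1 at 0 in both B16 lines and Lum also in B16F10. Of the 5 tested, 4 were lower in both B16 lines than in Melan-A (30.5% of all genes). Col1a2 was instead higher in both (24.3%), with log2 differences of 1.62 in B16F0 and 2.75 in B16F10. The 6 keratinocyte markers were at 5.94 CPM or less and the 5 immune and endothelial markers in the table at 47.2 CPM or less in every group. With SX-682 in Melan-A, the immune and endothelial sum went from 17.3 to 17.5 CPM up to 46.3 to 47.2 CPM. Of the 4 tested genes of that list only Cd68 was called, as higher (log2 fold change 1.48, SE 0.065, edgeR, beside 23.4% of all genes). The fibroblast sum went to 89.3 to 90.1 CPM, with 4 of 5 tested markers lower (24.7% of all genes). The part of these marker differences in the receptor results was not tested, and in bulk RNA fewer cells with a receptor and less receptor mRNA per cell cannot be told apart.

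The untreated lines differed in receptor levels, 8 of the 10 members being above the floor in every library. Melan-A had the highest mRNA of Axl, Erbb2, Erbb3, Igf1r, Pdgfrb and Egfr, B16F0 had the highest Kit and Pdgfra, and B16F10 had the highest Ngfr, while Met was higher in both melanoma lines than in Melan-A. All 10 members differed between B16F0 and Melan-A, where 75.9% of all genes tested differed, with 4 higher in B16F0 (35.3% of all genes) and 6 lower (40.6%). All 10 also differed between B16F10 and Melan-A (74.2% of all genes), 2 being higher in B16F10 (33.4%) and 8 lower (40.8%). Both comparisons share the Melan-A controls. Met and Ngfr were higher in both B16 lines than in Melan-A (24.3% of all genes), and Egfr, Pdgfrb, Axl, Igf1r, Erbb2 and Erbb3 were lower in both (30.5%). B16F10 and B16F0 differed in 8 members (62.0% of all genes), with Axl, Erbb2, Erbb3, Igf1r and Ngfr higher in B16F10 (30.8%) and Kit, Pdgfra and Pdgfrb lower (31.2%). With backgrounds this high, the calls alone do not set the receptors apart from other genes, and the sizes are given below. The median log2 difference of the 10 members was -1.52 in B16F0 against Melan-A, beside -0.06 over all genes, and -1.30 in B16F10, beside -0.10, with members at the floor set to their bound. With library totals in place of TMM, an alternative added after the data were seen, the median over all genes in B16F10 against Melan-A moved from -0.10 to -0.29 and the share of calls that were higher from 45% to 34.3%, and no call of a member in that comparison changed side or direction.

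**Figure D1:**
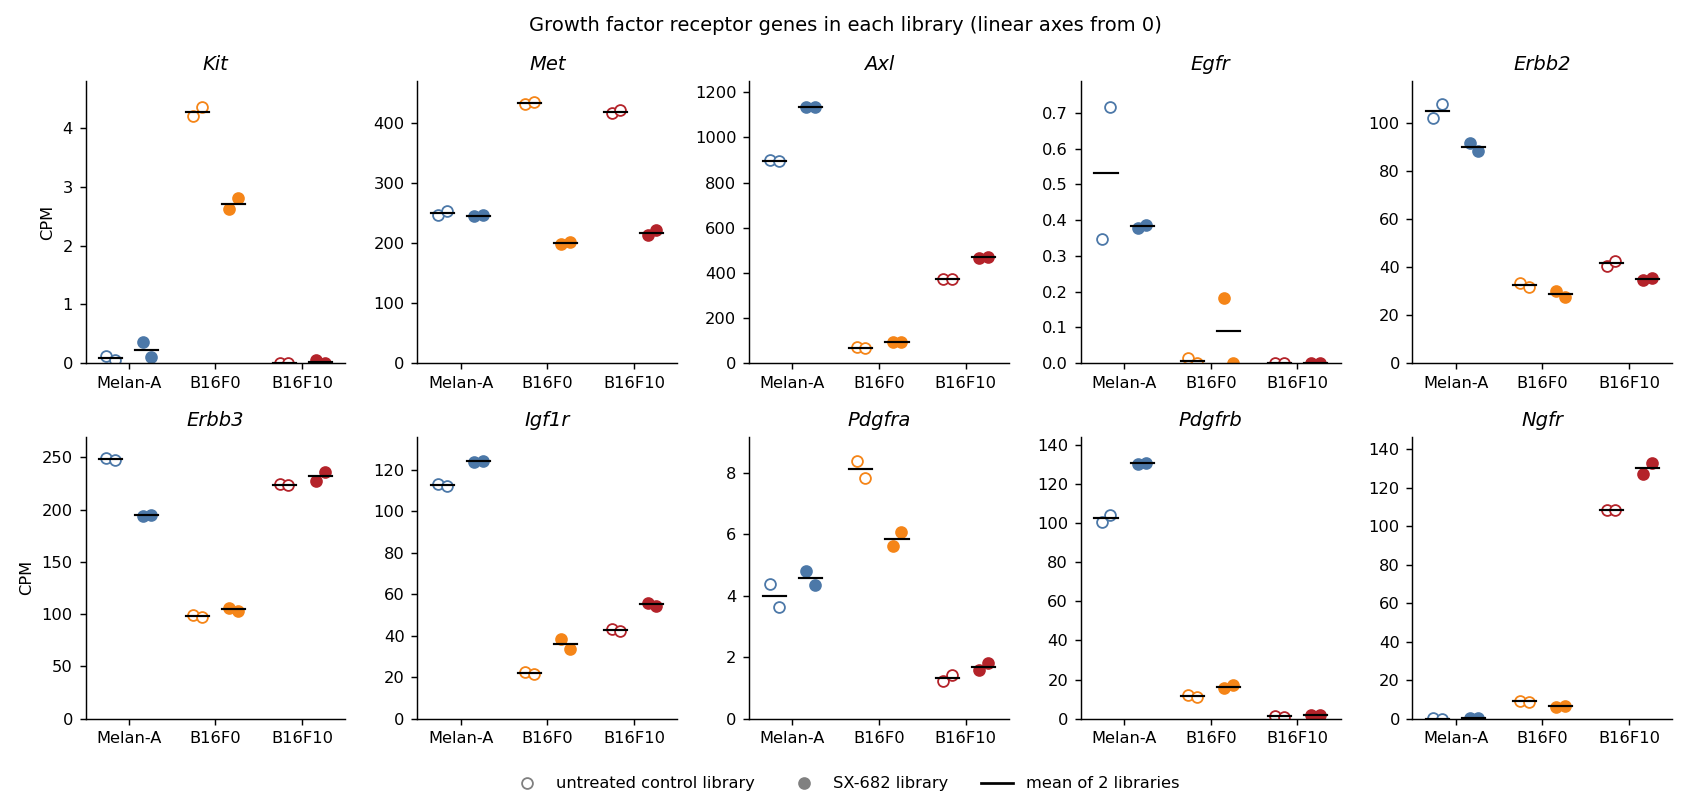
CPM of the 10 receptor genes (vertical axes, linear from 0, a different scale for each gene) in untreated libraries (open points) and SX-682 libraries (filled points) of Melan-A (blue), B16F0 (orange) and B16F10 (red), with a line at the mean of the 2 libraries. Ngfr was above 100 CPM in all 4 B16F10 libraries and under 10 CPM in all others, and Met stood at 431 and 436 CPM in the B16F0 controls and at 199 and 203 CPM with SX-682.

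Kit (chromosome 5, 75574916 to 75656722, 21 merged exons) encodes the receptor of stem cell factor. The untreated B16F0 libraries held 315 and 293 Kit counts, against 11 and 4 in the Melan-A controls and 0 and 0 in the B16F10 controls. Kit mRNA was thus largely a feature of B16F0 among these lines, at 4.21 and 4.36 CPM, and the groups did not overlap. The difference between B16F0 and Melan-A was 5.63 on the log2 scale (SE 0.42, edgeR adjusted p = 6.3e-13). Against B16F10, whose untreated libraries held no Kit read, B16F0 was at least 88.7-fold higher and Melan-A at least 1.78-fold higher, with 3 counts per library as the floor.

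Met (chromosome 6, 17463800 to 17573980, 22 merged exons) encodes the HGF receptor and was one of the most abundant members in every line. The Melan-A controls were at 246 and 254 CPM, the B16F0 controls at 431 and 436 CPM and the B16F10 controls at 417 and 422 CPM. All 4 melanoma controls lay above both Melan-A controls. The log2 difference from Melan-A was 0.80 in B16F0 (SE 0.025, adjusted p = 1.5e-22) and 0.75 in B16F10 (SE 0.025, adjusted p = 8.5e-22) in edgeR. The B16 lines differed by -0.05 (95% interval -0.10 to 0.00, adjusted p = 0.083), which passed with at least 10 counts required in every library (adjusted p = 0.0083) and with library totals (adjusted p = 4.41e-06).

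Axl (chromosome 7, 25757273 to 25788705, minus strand, 19 merged exons), the receptor of GAS6 in the TAM family, had the highest CPM of the 10 in Melan-A. It reached 899 and 894 CPM in the Melan-A controls, 373 and 374 CPM in B16F10 and 69 and 65.8 CPM in B16F0. The 3 lines were fully separated, with the metastatic line between the other two. Relative to Melan-A, Axl was lower by a log2 difference of -3.73 in B16F0 (SE 0.025) and -1.26 in B16F10 (SE 0.022), and B16F10 was 5.53-fold above B16F0 (edgeR adjusted p = 4.7e-34).

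The 3 ErbB members were lower in both melanoma lines. Erbb4, the remaining receptor of the family, had 7 and 15 counts in Melan-A, 14 and 18 in B16F0 and 1 and 0 in B16F10. It did not differ between B16F0 and Melan-A (log2 difference 0.86, adjusted p = 0.24 in edgeR) but was lower in B16F10 (edgeR adjusted p = 0.0064). Melan-A was 15.4-fold above B16F10 for Erbb4, with an exact counting interval of 2.5 to 637. Egfr (chromosome 11, 16752203 to 16918158), the receptor of EGF, was low in Melan-A and at or under the floor in the untreated melanoma lines, with 30 and 65 counts in the Melan-A controls, 1 and 0 in B16F0 and 0 and 0 in B16F10. Melan-A was 76.2-fold above B16F0 with an exact counting interval of 13.4 to 3040 and at least 11-fold above B16F10. The 2 Melan-A controls were themselves apart, at 0.348 and 0.716 CPM. Erbb2 (chromosome 11, 98412470 to 98437716), the family member with no known soluble ligand of its own, was at 102 and 108 CPM in Melan-A, 33.3 and 31.7 CPM in B16F0 and 40.5 and 42.5 CPM in B16F10. Its level was 0.31 of that of Melan-A in B16F0 and 0.396 in B16F10, and B16F10 was slightly above B16F0 (log2 difference 0.35, SE 0.047, edgeR adjusted p = 1.2e-07). Erbb3 (chromosome 10, 128567523 to 128589652, minus strand), the neuregulin receptor with little kinase activity of its own, was at 249 and 248 CPM in Melan-A, 98.8 and 97.2 CPM in B16F0 and 224 and 224 CPM in B16F10. Erbb3 was lowest in B16F0, with a log2 difference from Melan-A of -1.34 (SE 0.027), whereas B16F10 lay -0.15 below Melan-A (SE 0.026), close to the median of all genes in that comparison.

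Igf1r (chromosome 7, 67952827 to 68233668), the receptor of IGF1 and IGF2, was at 113 and 112 CPM in the Melan-A controls, 22.7 and 21.3 CPM in B16F0 and 43.4 and 42.3 CPM in B16F10. No libraries of different lines overlapped, and the order was Melan-A, B16F10, B16F0, as for Axl, Erbb2 and Erbb3. The log2 differences from Melan-A were -2.35 in B16F0 (SE 0.046) and -1.39 in B16F10 (SE 0.043), both with an edgeR adjusted p of 1.6e-22 or less.

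The 2 PDGF receptors did not follow each other. Pdgfrb (chromosome 18, 61045150 to 61085061), PDGF receptor beta, was at 101 and 104 CPM in Melan-A, 11.9 and 11.1 CPM in B16F0 and 1.34 and 1.03 CPM in B16F10. It fell away in steps over the lines, with log2 differences from Melan-A of -3.15 (SE 0.052) and -6.44 (SE 0.077). Pdgfra (chromosome 5, 75152292 to 75198215), PDGF receptor alpha, was low throughout, at 4.38 and 3.62 CPM in Melan-A, 8.38 and 7.84 CPM in B16F0 and 1.24 and 1.42 CPM in B16F10. B16F0 was 2.03-fold above Melan-A for Pdgfra and B16F10 was at 0.334 of it (edgeR adjusted p = 3.1e-08 and 3.9e-10). Of the Pdgfra exon bases, 4.55% are shared with an antisense gene and the strand setting of the counting is not given in the sources used here, so reads of the 2 genes cannot be told apart there.

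Ngfr (chromosome 11, 95568818 to 95587735, minus strand) showed the widest range of the 8 members with reads in every library. It had 5 and 4 counts in the Melan-A controls, 689 and 580 in B16F0 and 6542 and 6924 in B16F10. In CPM, B16F0 stood at 9.20 and 8.63 and B16F10 at 108 and 108. The log2 difference from Melan-A was 7.41 in B16F0 (SE 0.17) and 11.01 in B16F10 (SE 0.11), and B16F10 was 12.1-fold above B16F0 (edgeR adjusted p = 2.5e-30). The Melan-A control level of Ngfr was 0.0471% of that of the lowest B16F10 library, and the Melan-A level with SX-682 was 0.214%. Among 4247 genes with at least 50 CPM in every B16F10 library, the lowest level in Melan-A was 0.00209% and the fifth lowest 0.0358%. The latter values use the mean of the control and SX-682 libraries of Melan-A together, unlike those of Ngfr.

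Levels of different members can be set beside each other only per length of gene, and so CPM was divided by the length of merged exons. On this scale the 10 members summed to 297 and 299 CPM per kilobase in the Melan-A controls, 100.2 and 99.2 in B16F0 and 208 and 209 in B16F10. Axl made up 60.1% and 59.5% of this sum in Melan-A, followed by Erbb3 at 41.3 ± 0.18 CPM per kilobase (SD, n = 2), Met at 32.5 ± 0.70, Erbb2 at 20.1 ± 0.80 and Pdgfrb at 18.7 ± 0.49. In B16F0, Met alone made up 56.1% and 57.3% at 56.5 ± 0.44 CPM per kilobase (SD, n = 2), ahead of Erbb3 at 16.3 ± 0.19, Axl at 13.4 ± 0.45 and Erbb2 at 6.24 ± 0.22. In B16F10, Axl led again at 74.1 ± 0.13 CPM per kilobase (SD, n = 2), then Met at 54.6 ± 0.46, Erbb3 at 37.2 ± 0.11 and Ngfr at 31.4 ± 0.030. Adjacent members in these orders had libraries that did not overlap, except Ngfr and Kit at the bottom in Melan-A, at 0.0148 ± 0.0028 and 0.0096 ± 0.0066 CPM per kilobase, and Kit and Egfr, which had no reads in B16F10.

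**Figure D2:**
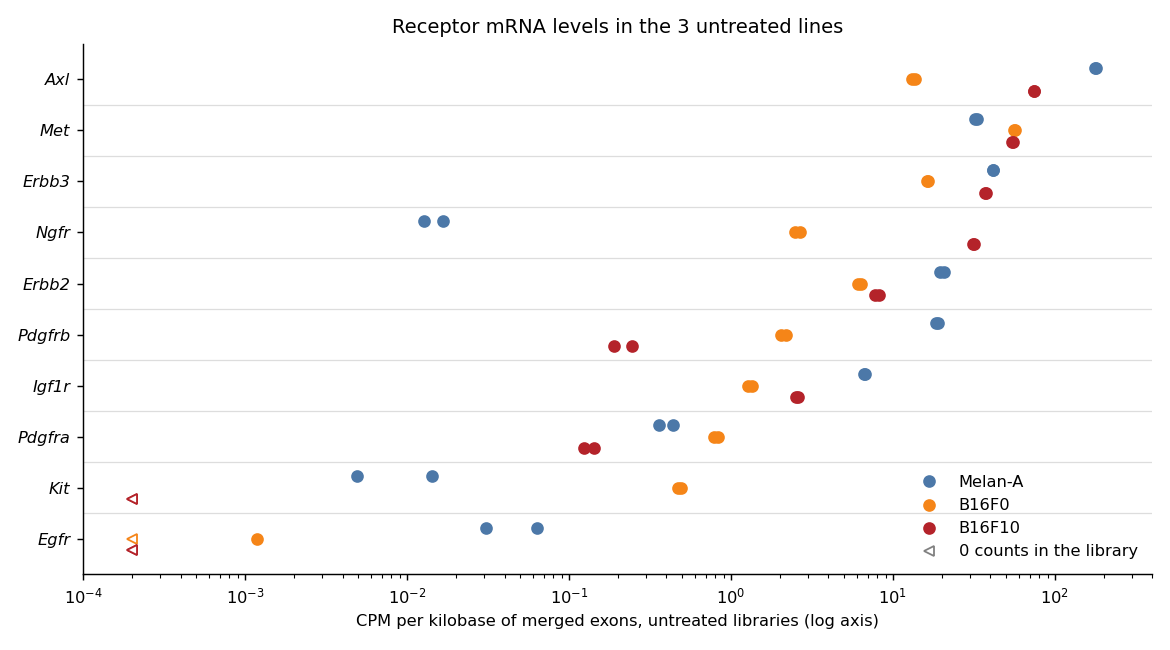
CPM per kilobase of merged exons (horizontal, log axis) of each receptor gene in the 2 untreated libraries of Melan-A (blue), B16F0 (orange) and B16F10 (red), with open triangles at the left for libraries with 0 counts. Axl was the highest member in Melan-A at 178 and in B16F10 at 74.1, and Met in B16F0 at 56.5.

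SX-682 lowered Met in both melanoma lines and raised Axl, Igf1r and Pdgfrb in all 3 lines, whereas Erbb2 fell modestly in all 3. In Melan-A, 7 members changed beside 48.2% of all genes, with Kit, Axl, Igf1r, Pdgfrb and Ngfr raised (23.4% of all genes) and Erbb2 and Erbb3 lowered (24.7%). The Kit call in Melan-A rests on 4 to 25 counts in overlapping libraries and is lost under alternatives given below. Ngfr had 4 to 19 counts a library there. In this line the fibroblast sum was lower and the immune and endothelial sum higher with SX-682, only Cd68 of the latter list being called. Markers of both lists were also called in the B16 lines, as given above. In B16F0, 9 members changed (50.1% of all genes), with Axl, Egfr, Erbb3, Igf1r and Pdgfrb raised (25.1%) and Met, Erbb2, Pdgfra and Ngfr lowered (25.0%). The Egfr call there rests on 12 counts in 1 library, and those of Egfr, Erbb2 and Erbb3 are each lost when a single library is left out, as given below. In B16F10, 6 members changed (50.8% of all genes), with Axl, Igf1r, Pdgfrb and Ngfr raised (25.5%) and Met and Erbb2 lowered (25.3%). With a log2 change of at least 1 required as well, Kit and Ngfr passed in Melan-A (5.50% of all genes), Met and Egfr in B16F0 (7.83%) and no member in B16F10 (8.18%). Over the 3 lines, 3 members rose in each (11.3% of all genes) and 1 fell in each (11.7%). The median log2 change of the members was 0.17 for Melan-A, -0.04 for B16F0 and 0.30 for B16F10, beside 0.00 over all genes in each line, where the B16F10 value leaves out Kit and Egfr as under the floor. Both SX-682 libraries lay outside both controls for 6 members of Melan-A, 9 of B16F0 and 8 of B16F10. The share of all genes separated in this way was not computed, so these counts do not set the members apart.

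**Figure D3:**
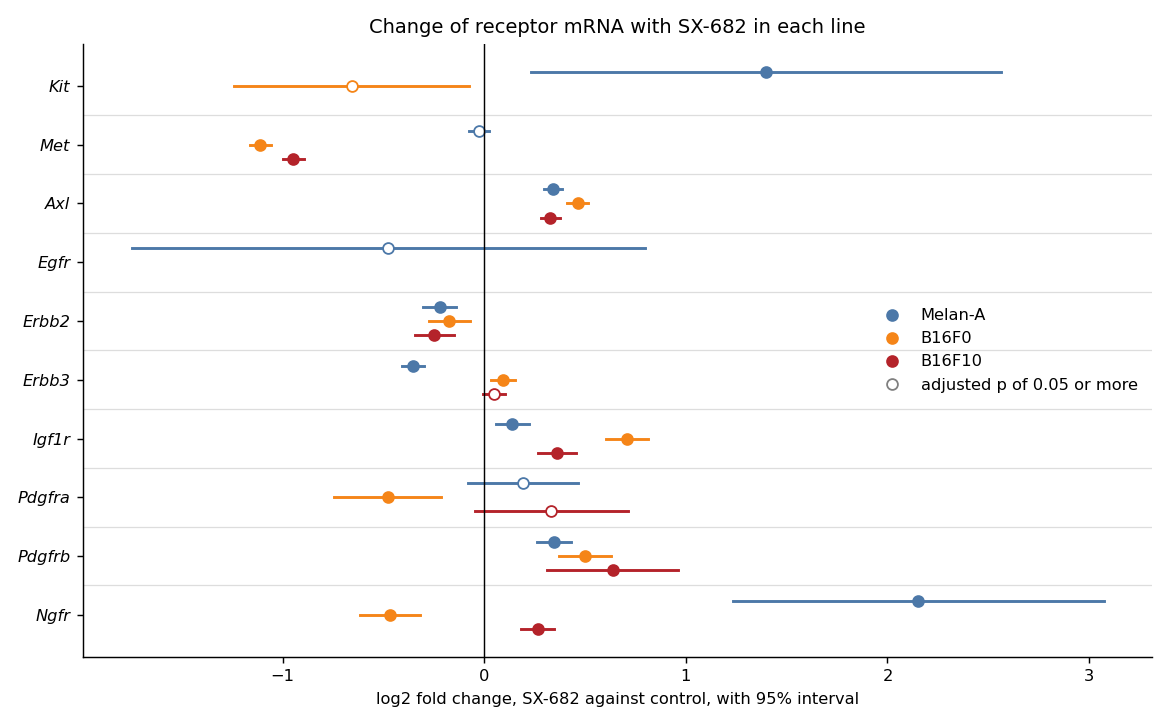
Log2 fold change of each receptor gene with SX-682 against control (horizontal) in Melan-A (blue), B16F0 (orange) and B16F10 (red), with the 95% interval of the edgeR fit as a bar and open points where the adjusted p was 0.05 or more. Kit in B16F10 and Egfr in both B16 lines are left out because their controls were at or under the floor. Met lies at -1.11 and -0.95 in the B16 lines and at -0.03 in Melan-A, and Axl and Pdgfrb lie to the right of 0 in all 3 lines.

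Met showed the largest change with SX-682 among the well expressed members. In B16F0 it went from 431 and 436 CPM to 199 and 203 CPM, and in B16F10 from 417 and 422 CPM to 214 and 221 CPM. In Melan-A it was at 246 and 254 CPM before and 245 and 246 CPM after. The treated melanoma libraries thus lay below the Melan-A level, and the Melan-A libraries overlapped between treatment and control. The log2 fold change was -1.11 in B16F0 (SE 0.025, adjusted p = 1.2e-24), -0.95 in B16F10 (SE 0.025, adjusted p = 3.4e-23) and -0.03 in Melan-A (95% interval -0.08 to 0.03, adjusted p = 0.44). Averaged over B16F0 and B16F10, the change lay -1.0 from that of Melan-A (SE 0.031, edgeR adjusted p = 5.4e-21). Mitf, the melanocyte transcription factor, which binds E-boxes such as the one printed above for Met, also fell, with log2 fold changes of -0.36 (SE 0.030), -2.11 (SE 0.030) and -1.14 (SE 0.028) for Melan-A, B16F0 and B16F10, and whether the Met change depends on it was not tested.

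Axl rose in every line. It went from 899 and 894 to 1137 and 1134 CPM in Melan-A, from 69 and 65.8 to 93.2 and 92.8 CPM in B16F0, and from 373 and 374 to 466 and 471 CPM in B16F10. All treated libraries lay above their controls, while the order of the lines stayed as it was without treatment. The log2 fold changes were 0.34 (SE 0.022), 0.46 (SE 0.026) and 0.33 (SE 0.022), and the F-test among the lines passed (edgeR adjusted p = 0.0029), the range over the lines being 0.14. Expressed per kilobase, Axl then made up 66.6% and 66.5% of the summed members in treated Melan-A and 45.0% and 44.4% in treated B16F10, where Met had dropped to 13.5% and 13.7% from 26.1% and 26.3%.

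Among the ErbB genes, Erbb2 fell from 102 and 108 to 91.7 and 88.2 CPM in Melan-A, from 33.3 and 31.7 to 29.9 and 27.5 CPM in B16F0 and from 40.5 and 42.5 to 34.6 and 35.4 CPM in B16F10. These are falls of 0.22, 0.17 and 0.25 on the log2 scale, and the change did not pass the test of a difference among the lines (edgeR adjusted p = 0.67). The call in B16F0 was lost without the first control library (adjusted p = 0.077) or without the second SX-682 library (adjusted p = 0.084). Erbb3 moved apart between the lines, from 249 and 248 to 194 and 195 CPM in Melan-A, from 98.8 and 97.2 to 106 and 103 CPM in B16F0, and from 224 and 224 to 227 and 236 CPM in B16F10. Its log2 fold change was -0.35 in Melan-A (SE 0.026), 0.09 in B16F0 (SE 0.029) and 0.05 in B16F10 (SE 0.027, adjusted p = 0.13), and the B16 mean minus Melan-A was 0.43 (SE 0.033, adjusted p = 9.2e-12). The small rise in B16F0 no longer passed in edgeR without the second control library (adjusted p = 0.063) or the first SX-682 library (adjusted p = 0.089). Egfr had 27 and 29 counts in treated Melan-A, which overlapped the controls, and 12 and 0 counts in treated B16F0, where the call rested on 1 library. In B16F0 the treated libraries held 15.0 times the control level with an exact counting interval of 2.21 to 640, and without the library with 12 counts the direction turned. No Egfr read was counted in any of the 4 B16F10 libraries.

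Igf1r rose from 113 and 112 to 124 and 124 CPM in Melan-A, from 22.7 and 21.3 to 38.2 and 33.3 CPM in B16F0 and from 43.4 and 42.3 to 55.7 and 54.5 CPM in B16F10. The treated libraries lay above the controls in each line, with the largest step in B16F0. The log2 fold changes were 0.14 (SE 0.039), 0.71 (SE 0.051) and 0.36 (SE 0.046), and the B16 mean minus Melan-A was 0.40 (SE 0.052, edgeR adjusted p = 3.7e-07).

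Pdgfrb rose in all 3 lines, from 101 and 104 to 130 and 131 CPM in Melan-A, from 11.9 and 11.1 to 15.6 and 17.1 CPM in B16F0 and from 1.34 and 1.03 to 1.88 and 1.80 CPM in B16F10. The log2 fold changes were 0.35 (SE 0.041), 0.50 (SE 0.063) and 0.64 (SE 0.16), which did not pass the test of a difference among the lines (edgeR adjusted p = 0.11). Pdgfra instead fell in B16F0, from 8.38 and 7.84 to 5.6 and 6.07 CPM, with a log2 fold change of -0.48 (SE 0.13, edgeR adjusted p = 0.0026). In Melan-A, Pdgfra was at 4.80 and 4.34 CPM with SX-682 (log2 fold change 0.19, 95% interval -0.08 to 0.47) and in B16F10 at 1.57 and 1.80 CPM (0.33, 95% interval -0.05 to 0.71), neither of which passed. The F-test among the lines passed for Pdgfra (edgeR adjusted p = 0.0025).

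Ngfr changed in opposite directions in the 2 melanoma lines. It had 5 and 4 counts in the Melan-A controls and 15 and 19 with SX-682, it fell from 9.20 and 8.63 to 6.28 and 6.67 CPM in B16F0, and it rose from 108 and 108 to 127 and 133 CPM in B16F10. The treated and control libraries did not overlap in any line. The log2 fold changes were 2.15 in Melan-A (SE 0.45), -0.47 in B16F0 (SE 0.073) and 0.26 in B16F10 (SE 0.040), with an edgeR adjusted p of 8.5e-09 for a difference among the lines. The B16 mean minus Melan-A was -2.25 (SE 0.45, adjusted p = 0.00016), and the treated Melan-A level was 0.214% of the lowest B16F10 library. Kit had 11 and 4 counts in the Melan-A controls and 25 and 8 with SX-682, which overlapped, and 315 and 293 counts against 173 and 135 in B16F0. In B16F0 the Kit CPM went from 4.21 and 4.36 to 2.63 and 2.80 without overlap, and the log2 fold change of -0.66 did not pass (SE 0.29, edgeR adjusted p = 0.057). The Kit call in Melan-A (log2 fold change 1.40, SE 0.57, edgeR adjusted p = 0.044) was lost with DESeq2 (adjusted p = 0.12), without the first SX-682 library (0.32, adjusted p = 0.78) without the second control library (0.82, adjusted p = 0.32) and without either B16F0 control (adjusted p = 0.056 and 0.057), which enter the shared spread. The B16F0 result moved to the other side of the threshold in edgeR with no filter (adjusted p = 0.018) and without any 1 of 6 libraries of the other lines (adjusted p = 0.034 to 0.04). In B16F10, Kit had 0 and 0 counts before and 3 and 0 counts after, at or under the floor in both groups.

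The change with SX-682 differed among the lines for 7 members (47.4% of all genes), namely Kit, Met, Axl, Erbb3, Igf1r, Pdgfra and Ngfr. For Kit this test includes B16F10, where its counts were at or under the floor in both groups. The mean change of the B16 lines differed from that of Melan-A for 4 members (35.8% of all genes), Met, Erbb3, Igf1r and Ngfr, of which Met and Ngfr differed by a log2 value of at least 1 (4.21%).

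Ligands of these receptors and of other receptors of their families were written as a list of 25 genes, of which 17 passed the filter. Not every gene of the list, such as Nrg3 and Nrg4, is an established ligand of a member. Hgf, the ligand of MET, had 16 counts in the 2 B16F0 controls together and 1 and 0 in those of Melan-A and B16F10, and Gas6, the ligand of AXL, was at 3.59 and 3.43 CPM in the B16F10 controls and at most 0.0927 CPM in the others. Untreated, 3 ligands were higher and 11 lower in B16F0 than in Melan-A, with a median log2 difference of -2.33, and 4 were higher and 9 lower in B16F10, with a median of -1.44, beside -0.06 and -0.10 over all genes, genes at the floor being set to their bound or counting ratio. Over all genes, 35.3% were higher and 40.6% lower in B16F0, and 33.4% and 40.8% in B16F10. Pros1, which encodes protein S, a further ligand of the TAM receptors, was at 48.8 and 53.2 CPM in B16F0 and 49.5 and 50.5 CPM in B16F10 against 0.0811 and 0.176 CPM in Melan-A. Nrg1, the neuregulin bound by ERBB3, had the opposite distribution, at 14.9 and 15.2 CPM in Melan-A, none in the B16F0 controls and 0.0496 and 0.0313 CPM in B16F10, so that Melan-A was at least 356-fold above B16F0. Bdnf, a neurotrophin bound by NGFR, was at 2.59 and 3.23 CPM in Melan-A, 0.441 and 0.268 CPM in B16F0 and 0 in both B16F10 controls. With SX-682 the calls among the 17 ligands were 3 raised and 3 lowered in Melan-A, 4 and 2 in B16F0, and 3 and 3 in B16F10, beside 23.4% to 25.5% of all genes called in each direction. Egf was the ligand raised in all 3 lines, from 0.348 and 0.561 to 1.49 and 1.48 CPM in Melan-A, from 0.681 and 0.402 to 3.10 and 2.12 CPM in B16F0 and from 0.198 and 0.297 to 1.39 and 1.56 CPM in B16F10. Kitl, the gene of stem cell factor, was the ligand lowered in all 3, with log2 fold changes of -0.78 (SE 0.090), -0.85 (SE 0.20) and -1.18 (SE 0.22). Its level was 24.7 and 24.5 CPM in the Melan-A controls and 1.26 to 1.55 CPM in the B16 controls, so the line with most Kit mRNA was not the line with most Kitl mRNA.

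**Figure D4:**
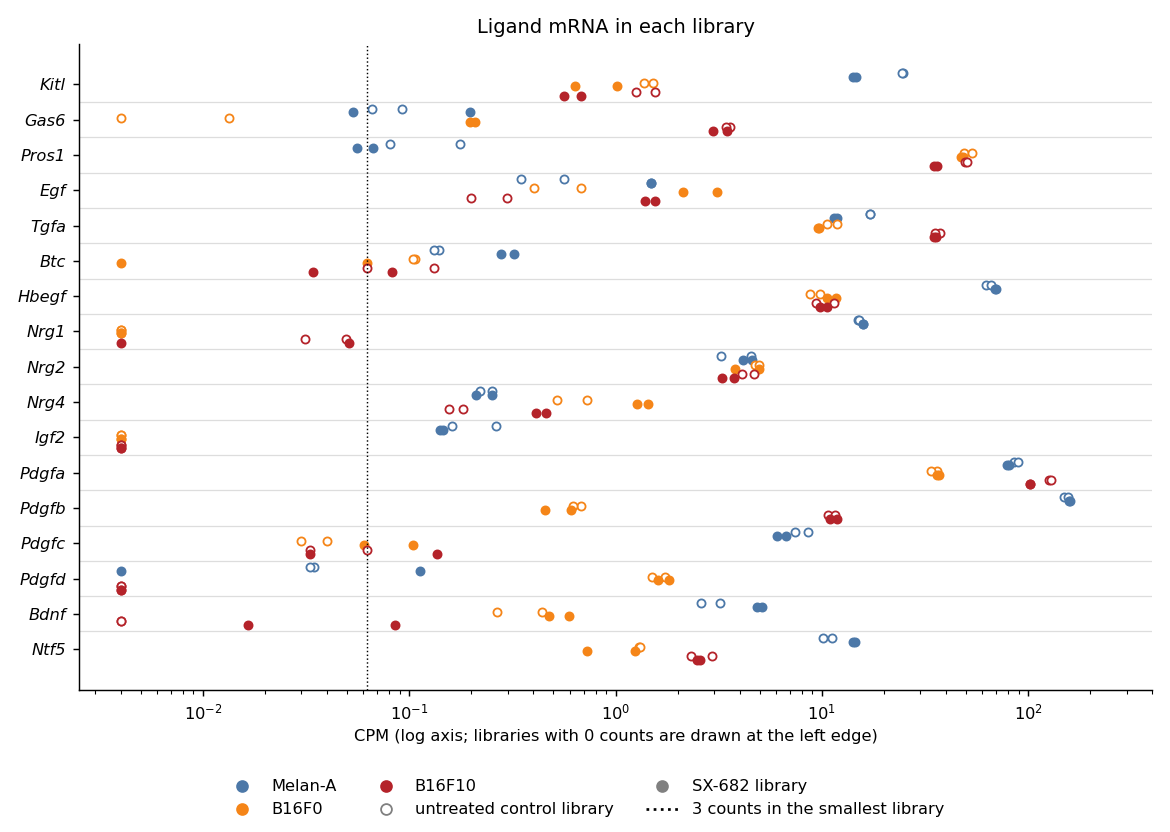
CPM (horizontal, log axis) of the 17 tested ligand genes in each untreated library (open points) and SX-682 library (filled points) of Melan-A (blue), B16F0 (orange) and B16F10 (red), with a dotted line at the level of 3 counts in the smallest library and libraries without reads drawn at the left edge. Kitl, Nrg1 and Pdgfc are highest in Melan-A and Pros1 is at 48.8 to 53.2 CPM in the untreated B16 lines, and the filled Egf points lie to the right of the open ones in each line.

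Of the 19 other receptors of the same families, 18 were tested. Untreated, 3 were higher and 10 lower in B16F0 than in Melan-A, and 4 higher and 12 lower in B16F10, with medians of -0.50 and -1.30 on the log2 scale when genes at the floor were set to their bound, beside -0.06 and -0.10 over all genes (over all genes 35.3% higher and 40.6% lower in B16F0, 33.4% and 40.8% in B16F10). Fgfr2, a fibroblast growth factor receptor, was at 94 and 92.9 CPM in Melan-A, at 0 in both B16F0 controls and at 0.413 and 0.501 CPM in B16F10. Mst1r, a relative of MET, was at 1.63 and 2.10 CPM in Melan-A and at most 0.0744 CPM in the B16 controls. Ntrk3, a neurotrophin receptor kinase, was at 5.26 and 4.77 CPM in B16F0 and 3.44 and 2.99 CPM in B16F10 but near the floor in Melan-A, and Tyro3, the TAM relative of AXL, was slightly higher in both B16 lines (log2 difference 0.19 and 0.55). With SX-682, 5 rose and 7 fell in Melan-A, 7 rose and 4 fell in B16F0, and 4 rose and 4 fell in B16F10, where 23.4% to 25.5% of all genes were called in each direction. Insr, the insulin receptor and a close relative of IGF1R, rose in all 3 lines by a log2 fold change of 0.61, 0.77 and 0.87 (SE 0.042, 0.043 and 0.046), and so did the collagen receptor Ddr1 by 0.15, 0.27 and 0.20. Tyro3 (-0.24, -0.26 and -0.35) and the sorting receptor Sort1 (-0.27, -0.20 and -0.09) fell in all 3.

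Behind the receptors, all 21 adaptors and first signalling steps were tested. In the untreated lines 6 were higher and 14 lower in B16F0 than in Melan-A and 8 higher and 12 lower in B16F10, with medians of -0.27 and -0.26 on the log2 scale, beside -0.06 and -0.10 over all genes (over all genes 35.3% higher and 40.6% lower in B16F0, 33.4% and 40.8% in B16F10). Irs1, the docking protein of the IGF and insulin receptors, was at 160 and 153 CPM in Melan-A, 8.64 and 9.13 CPM in B16F0 and 50.2 and 47.1 CPM in B16F10, in the same order of lines as Igf1r. Irs2 was also lower in both B16 lines, by -2.86 and -3.01, while the kinases Braf (0.60 and 0.47) and Src (0.51 and 0.55) were higher. With SX-682, 4 rose and 8 fell in Melan-A, 8 rose and 10 fell in B16F0, and 6 rose and 6 fell in B16F10, where 23.4% to 25.5% of all genes were called in each direction. The docking proteins Gab2 (log2 fold change 0.59, 0.72 and 1.13) and Gab1 (0.52, 0.60 and 0.79) rose in Melan-A, B16F0 and B16F10, and the PI3K subunits Pik3r1 (-0.75, -0.34 and -0.49) and Pik3cb (-0.32, -0.30 and -0.35) fell.

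The 17 inhibitors and endocytosis genes were all tested, and 10 rose and 5 fell with SX-682 in Melan-A, 10 rose and 4 fell in B16F0, and 7 rose and 4 fell in B16F10. Over all genes, 23.4% rose and 24.7% fell in Melan-A, 25.1% and 25.0% in B16F0 and 25.5% and 25.3% in B16F10. The medians over the 17 genes were 0.28, 0.22 and 0.06 on the log2 scale, beside 0.00 over all genes, the last being 0.17 without 1 gene that was at or under the floor. Lrig3, of a family of membrane proteins that regulate receptor turnover, rose by 0.84, 1.02 and 1.18, and Cblb, a ubiquitin ligase that marks active receptors for degradation, by 0.67, 0.81 and 0.81. The tyrosine phosphatases Ptpn1 (-0.36, -0.42 and -0.57) and Ptprj (-0.29, -0.33 and -0.23) fell in all 3 lines. Untreated, 3 were higher and 9 lower in B16F0 than in Melan-A and 5 higher and 12 lower in B16F10 (over all genes 35.3% higher and 40.6% lower in B16F0, 33.4% and 40.8% in B16F10). Grb10, an inhibitor of IGF1R and insulin receptor signalling, was at 69.9 and 70.1 CPM in Melan-A and had 1 and 0 counts in the controls of each B16 line. Lrig1 was at 118 and 115 CPM in Melan-A, 0.107 and 0.297 CPM in B16F0 and 29.2 and 34.9 CPM in B16F10, and Rnf41, a ubiquitin ligase for ERBB3, and Ptpn1 were higher in both B16 lines (0.19 and 0.72, and 0.43 and 0.55).

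The list of 9 IGF binding genes holds 6 secreted IGF binding proteins and 3 RNA-binding proteins of Igf2 mRNA. Untreated, 1 was higher and 7 lower in B16F0, and 3 were higher and 6 lower in B16F10 (over all genes 35.3% higher and 40.6% lower in B16F0, 33.4% and 40.8% in B16F10). Igfbp4 was at 264 and 262 CPM in B16F0 and 12.2 and 12.5 CPM in B16F10 against 1.11 and 0.991 CPM in Melan-A. Igfbp3 was at 36.6 and 36.6 CPM in Melan-A, 3.36 and 3.44 CPM in B16F10 and 0 in B16F0, where Melan-A was at least 865-fold higher. Igfbp2 had 15 and 37 counts in Melan-A, 2 and 0 in B16F0 and none in B16F10. With SX-682, 3 rose and 2 fell in Melan-A, 2 and 2 in B16F0 and 3 and 4 in B16F10, beside 23.4% to 25.5% of all genes in each direction, and Igf2bp3 was the gene that fell in all 3 (-0.30, -0.22 and -0.49).

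For each member, the genes with the most similar profile were sought among 10957 genes by Pearson's r of log2 CPM over the 12 libraries, as a description without a test, since the libraries share 3 lines and 2 treatments. Erbb3 was closest to Ctnna1 (r = 0.998) and Pcdh7 (0.993), Igf1r to Arap1 (0.998) and Nectin2 (0.995), Pdgfrb to Garem1 (0.998) and Hsf4 (0.996), and Axl to Nhlrc1 (0.997) and Tmc7 (0.996). Erbb2 was closest to Tnfaip8 (0.997) and Spn (0.996), Ngfr to Iars2 (0.994) and Acox3 (0.993), and Pdgfra to Xlr3c (0.983) and Serpinb6a (0.982). The lowest values were those of Kit, with Rgs8 (0.980) and Nubpl (0.978), Met, with Rasa2 (0.979) and Dcun1d4 (0.973), and Egfr, with Synm (0.946) and Fancc (0.943), Egfr having 0 counts in 6 of the 12 libraries.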

How the data were processed

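The authors deposited a table of raw read counts per gene for the 12 libraries, with gene positions and lengths that equal the merged exons of GENCODE M21 on GRCm38. The submitters' processing notes name cutadapt, STAR, DESeq2 and the build mm10, and the counting program and its strand setting are not given in the sources used here. Counts were fitted in R 4.3.3 with edgeR 4.0.16: filterByExpr, TMM scaling, 1 quasi-likelihood fit over all 6 groups with no replicate block, a prior count of 0.125 for fold changes and Benjamini-Hochberg adjustment over 18338 genes at 0.05. On simulated counts for SX-682 in B16F0 (17257 genes tested), 70.2% of genes changed by a log2 fold of 1 and 89.1% of those changed by 2 were called, and 0.0586% of unchanged genes. The simulation held no differences between lines, and only 94 and 92 tested genes were changed by these sizes. In the data 50.1% of genes were called in this comparison, so these rates need not hold for the fit of the data. The 10 members and the gene lists were chosen with earlier results of these data known. Genes named from a list were those called in the same direction in all 3 lines with SX-682, or in both B16 lines untreated, up to 2 in each direction by the smallest of the SX-682 changes or by the largest untreated difference. Hgf, Gas6, Pdgfc, Erbb4 and Cd68 were named after their values were seen. DESeq2 1.42.0, RLE scaling, other filters, prior counts and thresholds, a replicate block and separate fits per line and the loss of each library were tried as alternatives, and library totals without TMM were added after the data were seen. Sample numbers were tested for pairing by the correlation of deviations from group means. The result of 1 marker list is not reported here.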

Additional observations from a re-analysis of the deposited data

Results flagged for a closer look

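For 7 receptor genes the change with SX-682 differed among the lines in edgeR's F-test of the interaction, the test being over 18338 genes. The distance between the highest and the lowest log2 fold change of the lines was 2.621 for Ngfr, 2.055 for Kit, 1.086 for Met, 0.811 for Pdgfra, 0.567 for Igf1r, 0.448 for Erbb3 and 0.135 for Axl. The Kit value leaves out B16F10, where its counts were at or under the floor, and rests on 4 to 25 counts a library in Melan-A, as that of Ngfr rests on 4 to 19. The F-test of Kit did not leave out B16F10. Met, Igf1r and Erbb3 were above the floor in every library. The causes of these differences were not tested.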

How the results depend on the processing

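Of the log2 fold changes of single members recomputed under the alternatives, 1099 kept their call and, where called, their direction, 10 came to pass, 12 no longer passed and 1 turned direction. The one that turned was Egfr with SX-682 in B16F0, at -2.28 without the first SX-682 library and -2.28 to 5.80 over the libraries left out in turn. The alternatives counted include a prior count of 2, which alters the fold change but not the p-value. They also include left-out libraries outside the comparison, which act only through the shared spread and scaling. Many of the 1099 thus had little or no room to change. With a minimum absolute log2 change of 1, the receptor genes that passed with SX-682 numbered 2 for Melan-A (Kit, Ngfr), 2 for B16F0 (Met, Egfr) and 0 for B16F10, and the change of 2 differed between the B16 mean and Melan-A. With library totals, Erbb3 with SX-682 in B16F10 passed (0.06, adjusted p = 0.04). With a replicate block the counts of changed members were 10, 10 and 8 between the untreated lines, 7, 9 and 6 with SX-682, and 4 and 7 for the differences between lines, and no call of a member changed. The numbers did not pair the libraries, since same-numbered libraries deviated together with correlations of 0.00313, -0.00913 and -0.0127. Depth limits Kit in Melan-A and B16F10, Egfr in all lines and Ngfr in Melan-A.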
